A study of Mus musculus with 6 samples.

Results

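The protein part of the cytosolic ribosome was followed in gastrocnemius, a mostly fast-fibred calf muscle, of mice with and without the long non-coding RNA lnc-ORA. Its genes were taken by symbol: every row of the deposited table that starts with Rpl or Rps and a number, the stalk genes Rplp0, Rplp1 and Rplp2, and Rpsa, leaving out the S6 kinases and rows marked as pseudogenes by "-ps". This gave 85 of 11815 genes. Among them, 77 encode the main proteins of the particle (46 of the large subunit, stalk included, and 31 of the small subunit), and 5 are expressed paralogues, that is, second gene copies of a main gene (Rpl3l, Rpl7l1, Rpl22l1, Rps27l and Rpl36al). The annotation GENCODE M21 lists 2 further rows, Rps3a2 and Rpl6l, as processed pseudogenes. Rps19bp1, a protein that binds Rps19, is caught by its symbol and is not a ribosomal protein. Family members such as Fau and Rack1 carry other symbols and are described apart.

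The wild-type (WT) and knockout (KO) mice were of C57BL/6 background and 15 weeks of age, and received no treatment that the labels give. KO mice carried a CRISPR deletion of 5147 bp that takes out the whole lnc-ORA transcript, made in fertilised eggs and passed on through crosses with wild-type mice. WT had 3 libraries, replicates 2, 3 and 4, and KO had 3, replicates 1, 2 and 3. Values per library are always given in that order. The targeted locus was not analysed here, so the genotype is as labelled. The labels do not say that each library came from its own animal, nor how many founders there were or whether both alleles were deleted. A p-value therefore reflects the spread among these libraries, which may be technical. The study's stated question is the part that lnc-ORA plays in the conversion of muscle fibre types.

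Ribosomes are built from ribosomal RNA and a fixed set of proteins, most of which are present in a single copy in each particle. Cells therefore tend to make the proteins in balance, and many of their mRNAs begin with a terminal oligopyrimidine (TOP) run, a C followed by a stretch of C and T (U in the RNA), through which the kinase mTOR controls their translation. That control acts on translation, which RNA levels do not show. Skeletal muscle is unusual in that it makes Rpl3l, a paralogue found in heart and skeletal muscle, alongside or in place of Rpl3, a protein of the peptidyl transferase centre.

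RefSeq promoter windows on GRCm38.p6, from 250 bases before to 50 bases after a start, were found for 63 of the 85 genes. The lines that follow show 60 bases around the start, 45 before it and 15 from it on, for paralogues, for main genes paired with them and for Rps21 and Rps6. Where RefSeq gives several starts, the most upstream is shown. Capitals mark an oligopyrimidine run, defined as C followed by at least 6 bases that are C or T. It begins within 10 bases of the annotated start, on the transcribed strand. A line without capitals has no such run near that start, which does not show that the mRNA lacks a TOP run.

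Rps27, chr3:90213634-90213693, minus strand: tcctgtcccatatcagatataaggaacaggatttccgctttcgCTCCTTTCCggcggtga
Rps21, chr2:180257334-180257393, plus strand: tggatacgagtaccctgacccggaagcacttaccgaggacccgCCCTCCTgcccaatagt
Rps6, chr4:86857353-86857412, minus strand: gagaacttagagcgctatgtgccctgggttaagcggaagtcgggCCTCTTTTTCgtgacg
Rps27l, chr9:66946041-66946100, plus strand: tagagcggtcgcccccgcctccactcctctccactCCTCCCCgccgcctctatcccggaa
Rpl22l1, chr3:28805463-28805522, plus strand: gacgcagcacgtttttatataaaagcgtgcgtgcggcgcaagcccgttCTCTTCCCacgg
Rpl3l, chr17:24727781-24727840, plus strand: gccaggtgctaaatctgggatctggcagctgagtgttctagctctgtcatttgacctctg
Rpl7l1, chr17:46782642-46782701, minus strand: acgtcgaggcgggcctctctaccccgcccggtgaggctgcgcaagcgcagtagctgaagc
Rpl36a, chrX:134585609-134585668, plus strand: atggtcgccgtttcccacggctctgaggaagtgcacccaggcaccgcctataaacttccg
Rpl36al, chr12:69184053-69184112, minus strand: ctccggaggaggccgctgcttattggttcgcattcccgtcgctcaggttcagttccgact

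Of the paralogues, Rps27l and Rpl22l1 carried a run in these windows, and Rpl3l, Rpl7l1 and Rpl36al did not. Among the 57 main genes with a window, 27 carried one. Over the 75 windows of members, 29 held a run (38.7%), beside 12.2% of all 32851 windows, while on the other strand the same run was in 8% of members' windows and 14.3% of all. CCGGAAG, a letter string bound by ETS factors, was in 34.7% of members' windows and 8.86% of all, counting both strands. AAGATGGC, a string of the factor YY1, was in 10.7% and 2.75%, and TATAAA in 9.33% and 13.6%. The last 3 letters of the ETS string can be the first 3 of the YY1 string. These are matches of letters at annotated starts, not mapped starts or bound sites. The log2 fold change between genotypes had a median of -0.14 over the 29 genes with a run and of -0.14 over the 34 genes without. A gene without a run at its annotated start may still make a TOP mRNA, so these medians do not compare TOP with other mRNAs.

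The deposited values are reads divided by gene length and by the counted reads of the library (RPKM). The counted reads came to 54370181 to 69693905 per library, of which the 85 genes took 0.689% to 0.838%. A gene of the family had between 42 reads (Rps3a2) and 39547 reads (Rpl5) in a library, with a median over the genes of 2613 reads in the library where each was lowest. Ribosomal proteins have many near-identical copies in the genome. In 43 of the 85 genes, more than 50% of all 50-base stretches of the main transcript also occurred in transcripts of other genes, and 3 genes, Rpl3l and Rps19bp1 among them, shared none. The sources used here do not give how the authors counted such reads, so the level of a gene with many shared stretches is uncertain, and 49 of the 85 also overlap another gene. The 43 genes with more shared sequence had a median log2 fold change of -0.15 and the other 42 of -0.13.

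All 85 genes were expressed, with mean RPKM over the 6 libraries from 1.25 (Rps3a2) to 422 (Rps24) and a median of 35.4, against 3.69 over all tested genes. There were 18 genes over 100 RPKM and 20 under 10 RPKM. Rps24, a small-subunit protein, measured 409, 430.3 and 468 RPKM in WT and 420.2, 379 and 427 RPKM in KO. Rpl23a, which sits at the exit of the peptide tunnel, measured 300.1, 335 and 329.9 RPKM in WT and 330.4, 311 and 331 RPKM in KO. Both stood above every other member in every library, and the genotypes overlapped for both.

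The third level was that of Rpl3l, at 199, 218 and 220.5 RPKM in WT and 223, 215 and 229.6 RPKM in KO. Its range did not touch that of Rpl23a, but overlapped those of the next genes, Rps23 (169 to 232 RPKM) and Rpl19 (178 to 221 RPKM), so its place among these is not resolved. Rpl3 measured 12.4, 8.11 and 8.52 RPKM in WT and 8.40, 8.38 and 7.42 RPKM in KO. The paralogue was thus above the main gene in all 6 libraries, with a ratio of 16.1 to 30.9. Rpl3l lies on chromosome 17 (24727820 to 24736143, GRCm38) and Rpl3 on chromosome 15 (80077791 to 80091868). No 50-base stretch of Rpl3l was found in another gene, against 85.6% of those of Rpl3.

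RPKM divides by a gene length, which was the summed GENCODE M21 exon length for 66 members and a length found from the values for the other 19. The length used was a median of 1.67 times that of the main GENCODE M21 transcript, and up to 6.79 times, but for 7 of the 19 it was shorter, as for Rps24 (840 against 1613 bp). Dividing by the main transcript instead left Rpl3l at 259.7 (rank 8 of 85) and Rpl3 at 20.5 (rank 71). On that scale Rpl23a (488) and Rpl26 (454) came first, and Rps24 (219.9), through that difference in length, was at rank 10. The 2 scales gave a Spearman correlation of 0.92 across the 85 genes, which share libraries and reads and are not independent. The order near the top therefore depends on the length used, while Rpl3l stood far above Rpl3 on both scales.

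The lowest levels were those of the pseudogene rows Rps3a2 and Rpl6l (mean 1.25 and 2.56 RPKM), the paralogue Rpl22l1 (1.55 RPKM) and the large-subunit gene Rpl18 (2.45 RPKM). Rpl18 measured 2.63, 2.72 and 2.42 RPKM in WT and 2.47, 2.07 and 2.37 RPKM in KO. Rpl6l measured 2.17, 3.02 and 2.61 RPKM in WT and 2.29, 2.31 and 2.95 RPKM in KO. The genotypes overlapped for both. Although most main proteins occur in equal numbers in a ribosome, the RPKM values of their genes spread from 2.45 to 422. Across the 85 genes, RPKM had a Spearman correlation of 0.05 with the share of stretches found elsewhere and of -0.32 with the gene length used. RPKM is itself divided by that length, so the second value does not show that longer genes are less expressed.

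**Figure D1:**
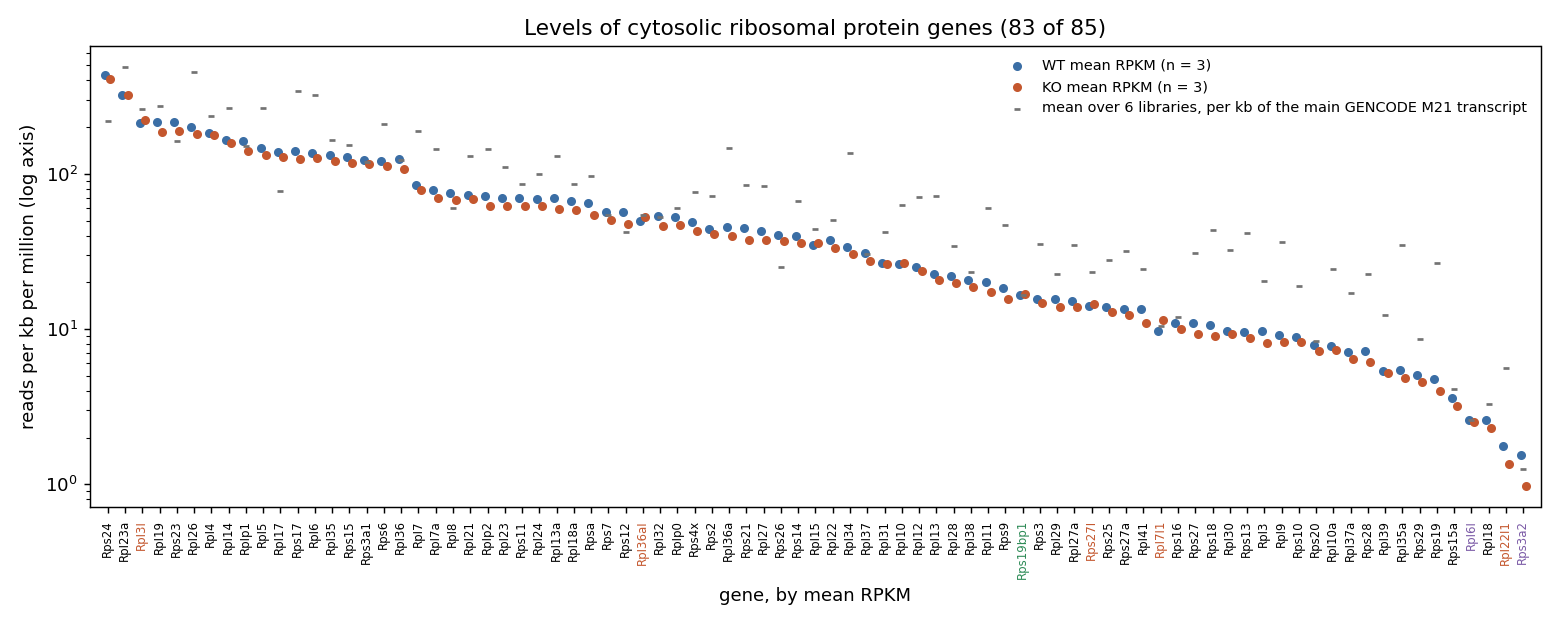
Of the 85 genes, 83 are shown in order of its mean RPKM on a log axis, with the WT mean in blue and the KO mean in orange (3 libraries each). Grey dashes give the mean of the 6 libraries per kilobase of the main transcript. Gene names in orange are paralogues, in purple pseudogene rows and in green Rps19bp1. Rpl3l stands among the highest members and Rpl3 among the lower ones on both scales.

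The members moved together between libraries. WT replicate 4 held the highest value for 66 of the 85 genes, beside 16.1% of all tested genes, and KO replicate 2 the lowest for 68, beside 15.0%. WT replicate 2, where 46.9% of all tested genes had their highest value, was highest for 5 members. The median member stood -0.01, 0.06 and 0.16 log2 units from its own mean over the libraries in WT and -0.02, -0.17 and -0.02 in KO. The median tested gene stood at 0.12, 0.01 and 0.01 in WT and -0.08, -0.02 and -0.03 in KO. The highest and the lowest library for the family were thus not those of the other genes.

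Summed over the family, RPKM came to 5075, 5315 and 5627 in WT (5339 ± 277, SD, n = 3) and 5045, 4592 and 5061 in KO (4899.5 ± 266, SD, n = 3). Every KO sum lay below every WT sum, but WT replicate 2 and KO replicates 1 and 3 were close to each other. Large-subunit and small-subunit sums kept a nearly fixed ratio, at 1.75, 1.73 and 1.70 in WT and 1.75, 1.75 and 1.74 in KO. This ratio does not depend on how libraries are scaled, and the genotypes overlapped. The median coefficient of variation between libraries of a genotype was 7.94% in WT and 6.65% in KO for members, which are also more abundant, and 11.3% and 8.05% for tested genes.

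**Figure D2:**
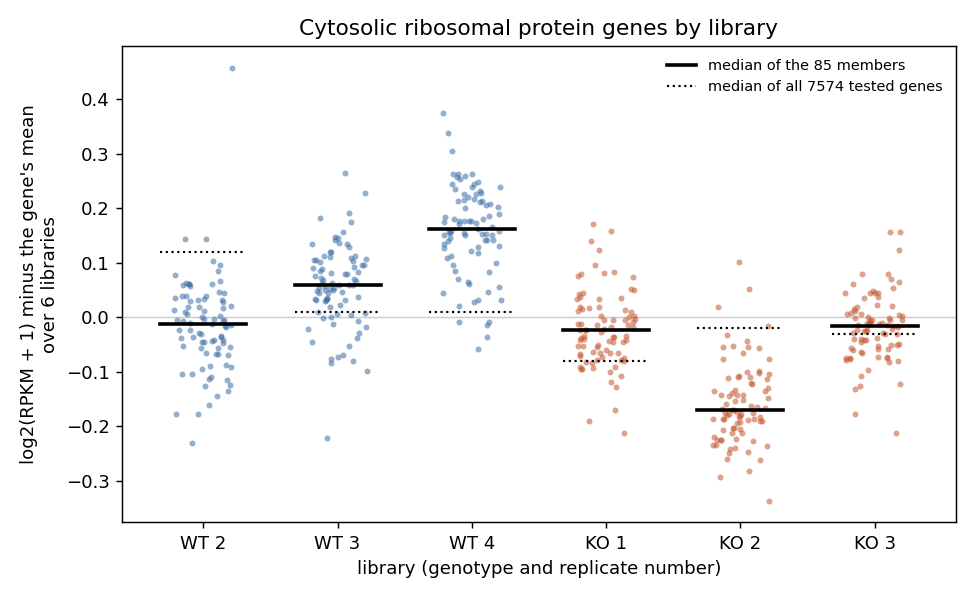
For each library, points give the difference of each of the 85 genes from its own mean over the 6 libraries, in log2(RPKM + 1). The solid line is the members' median and the dotted line that of all 7574 tested genes. Members are highest in WT replicate 4 (median 0.16) and lowest in KO replicate 2 (median -0.17), whereas the tested genes are highest in WT replicate 2 (median 0.12).

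Genotypes were compared with limma on log2(RPKM + 1) over the 7574 genes that reached 1 RPKM in 3 or more libraries, all 85 members included, and a gene was called at a Benjamini-Hochberg adjusted p under 0.05. Fold changes are KO over WT on that log2 scale, where changes of low genes come out too small. None of the 85 members was called (0 of 85), while 17.3% of all tested genes were, 13.5% as lower and 3.83% as higher in KO. At an unadjusted p under 0.05, 12 members were lower (25.8% of all tested genes were) and 1 was higher (7.59% were). A test on whole reads recovered from the values, limma-voom, also called 0 members (18.4% of its genes), with 10 lower (26.0%) and 1 higher (7.40%) at an unadjusted p under 0.05. The authors' deposited table has 0 members at an FDR under 0.05 (1.69% of the tested genes). The smallest and largest fold changes of a member were -0.36 (Rps3a2) and 0.22 (Rpl7l1).

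The absence of calls came with fairly narrow intervals. The 95% intervals of the fold changes had a median half-width of 0.21 log2 units, and for 82 of the 85 genes they left out a 1.5-fold change of the WT mean RPKM in either direction, under the deposited scaling. The exceptions were Rps3a2, Rpl22l1 and Rpl3, whose intervals reached -0.60, -0.55 and -0.55. Smaller differences were not resolved.

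Most differences were negative under the deposited scaling. The fold change lay below 0 for 77 of the 85 genes (67.6% of all tested genes), including all 31 small-subunit and 43 of 46 large-subunit main genes, and above 0 for 8. In 32 members every KO library lay below every WT library (30.0% of tested genes), and in 1, Rpl7l1, every KO library lay above (9.22%). The members' median was -0.14, beside -0.09 for all tested genes. The large-subunit and small-subunit genes had the same median of -0.14, and the 3 stalk genes -0.20.

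These signs depended on the scaling of the libraries. With all libraries brought to the same median, the median of all tested genes moved from -0.09 to 0.01, that of the members to -0.04, and 64 members lay below 0, beside 47.9% of tested genes. With library totals that leave out the 10 most abundant genes, the medians were 0.05 for tested genes and 0.03 for members, and 27 members lay below 0, beside 40.0% of tested genes, and 58 above. In the authors' deposited table the members' median was -0.04, with 58 below and 27 above 0, beside 0.01 for the tested genes. Relative to the median of all tested genes, the members stood at -0.05 with the deposited totals, -0.05 with equal medians and -0.02 without the 10 most abundant genes.

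Single libraries also moved this distance. Without WT replicate 2 the medians were -0.18 for members and -0.06 for tested genes, without WT replicate 4 they were -0.10 and -0.11, and without KO replicate 2 they were -0.09 and -0.10. The members' distance from the other genes thus ranged from -0.12 to 0.01 over the libraries left out. RNA of a whole muscle was measured, in which fewer cells of a type and less RNA per cell cannot be told apart.

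**Figure D3:**
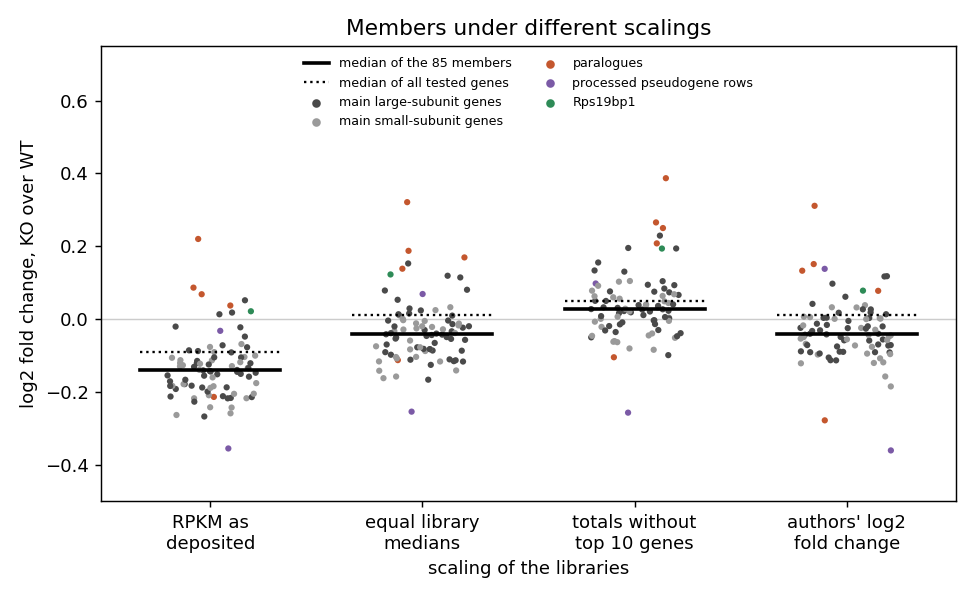
Each point is the log2 fold change (KO over WT) of 1 of the 85 genes under 3 scalings of the libraries and in the authors' deposited table. Solid lines are the members' medians (-0.14, -0.04, 0.03 and -0.04) and dotted lines those of all tested genes (-0.09, 0.01, 0.05 and 0.01). The paralogues, in orange, lie mostly above the main genes under each scaling, while the side of 0 on which most members lie changes.

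Among the large-subunit genes, Rpl41, which encodes a very short peptide of the large subunit, had the lowest fold change. It measured 12.01, 13.4 and 14.6 RPKM in WT and 10.6, 10.5 and 11.7 RPKM in KO. All KO values lay below all WT values, but WT replicate 2 and KO replicate 3 almost met. Its fold change was -0.27 ± 0.09 (SE) with a limma adjusted p of 0.0865. Without WT replicate 2 it was called (-0.34, limma adjusted p 0.0453), in a fit that called 14.2% of all genes and 3 members.

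Rpl19, an abundant protein that bridges the subunits, measured 221, 215 and 209 RPKM in WT and 187, 178 and 193 RPKM in KO. The genotypes were well apart (215 ± 6.05 and 186 ± 7.48, SD, n = 3 each), with a fold change of -0.21 ± 0.08 (SE) and a limma adjusted p of 0.102. Rpl13a, which is also known for a role in translational silencing outside the ribosome, measured 64.7, 66.6 and 76.8 RPKM in WT and 62.9, 55.03 and 59.2 RPKM in KO (fold change -0.23, limma adjusted p 0.141). Here the gap between the genotypes was small. Rpl36 (115, 124 and 135 RPKM in WT, 109, 99.97 and 112 RPKM in KO) and Rpl27 (41.5, 41.7 and 44.6 RPKM in WT, 39.0, 34.8 and 37.7 RPKM in KO) had fold changes of -0.22 and -0.19 and limma adjusted p of 0.147 and 0.140.

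The stalk proteins form the flexible arm through which elongation factors reach the ribosome. Rplp1 measured 155, 164 and 171 RPKM in WT and 144, 129.5 and 149.6 RPKM in KO, and Rplp0, its anchor, 49.2, 52.8 and 55.1 RPKM in WT and 47.4, 44.2 and 48.9 RPKM in KO. For both, KO replicate 3 came close to WT replicate 2 without reaching it. Rplp2 measured 66.5, 69.5 and 79.2 RPKM in WT and 61.3, 58.6 and 66.9 RPKM in KO, so that the genotypes overlapped. The fold changes were -0.21, -0.16 and -0.20 for Rplp1, Rplp0 and Rplp2, with limma adjusted p of 0.135, 0.222 and 0.192.

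Among the small-subunit genes, Rps21 measured 40.1, 47.9 and 46.5 RPKM in WT and 35.6, 35.7 and 40.5 RPKM in KO. WT replicate 2 was just below KO replicate 3, so the genotypes overlapped, and the fold change was -0.26 ± 0.10 (SE, limma adjusted p 0.108). Rps9 measured 17.7, 18.04 and 19.3 RPKM in WT and 16, 14.3 and 16.6 RPKM in KO (-0.22, limma adjusted p 0.117). Every KO library was below every WT library for Rps9.

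Rps19, a protein whose loss in people causes a failure of red cell production, measured 4.43, 4.601 and 5.38 RPKM in WT and 4.05, 3.86 and 4.11 RPKM in KO. Its genotypes did not overlap, and its fold change was -0.21 with a limma adjusted p of 0.135. Rpsa, also known as a laminin receptor, measured 56.9, 63.4 and 72.9 RPKM in WT and 57.1, 49.3 and 55.8 RPKM in KO. KO replicate 1 was above WT replicate 2, and the fold change of -0.24 did not pass (limma adjusted p 0.166). Rps12 (fold change -0.26, limma adjusted p 0.158) overlapped as well, with 50.4, 59.1 and 61.1 RPKM in WT and 50.4, 40.7 and 50.8 RPKM in KO. Rps6, the substrate of the S6 kinases downstream of mTOR, measured 125, 119 and 119 RPKM in WT and 116, 107 and 113 RPKM in KO (-0.11, limma adjusted p 0.343).

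The largest difference in the family was that of a row that GENCODE M21 lists as a processed pseudogene. Rps3a2 measured 1.123, 1.67 and 1.81 RPKM in WT and 0.919, 0.954 and 1.03 RPKM in KO, from 62, 72 and 94 reads and 50, 42 and 50 reads. WT replicate 2 was close to the KO libraries and the other WT libraries well above them. The fold change was -0.36 ± 0.11 (SE) with a limma adjusted p of 0.0551, and without WT replicate 2 the row was called (-0.48, limma adjusted p 0.00602). At this low level the value depended on the scale, with -0.59 at a pseudocount of 0.1 and -0.62 by limma-voom (limma adjusted p 0.0527 and 0.0946). Since 90.2% of its 50-base stretches occur in other genes, the origin of these reads is uncertain.

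**Figure D4:**
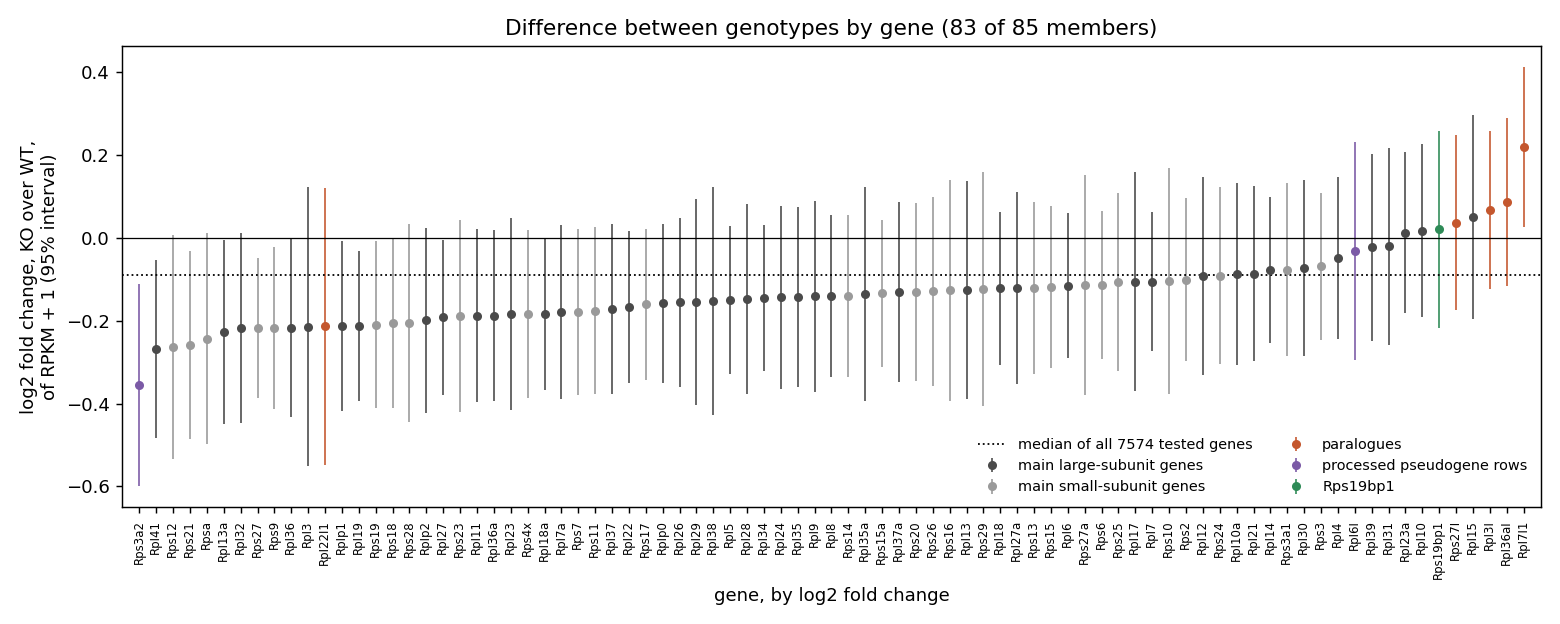
Points give the log2 fold change (KO over WT, deposited scaling) of 83 of the 85 genes with its 95% interval, in order of size. The dotted line is the median of all 7574 tested genes (-0.09). Most members lie below 0 under this scaling, which is not so when the 10 most abundant genes are left out of the totals. The 4 paralogues above 0, in orange, lie toward the right end with Rpl7l1 last, and the main gene Rpl15 lies among them.

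The fold change of the paralogues lay above 0 for 4 of the 5 and below 0 for Rpl22l1, with a median of 0.07 under the deposited totals, 0.17 with equal medians and 0.25 without the 10 most abundant genes. In the authors' deposited table the same median was 0.13. No paralogue was called under the deposited totals, and their difference from the main genes was not tested.

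Rpl7l1, a relative of Rpl7 found in precursors of the large subunit, measured 10.1, 8.83 and 10.01 RPKM in WT and 11.9, 11.3 and 10.9 RPKM in KO. Every KO library was above every WT library (9.65 ± 0.717 and 11.4 ± 0.510, SD, n = 3 each). The fold change was 0.22 ± 0.08 (SE), with a 95% interval from 0.03 to 0.41 and a limma adjusted p of 0.109. It was called with equal library medians (0.32, limma adjusted p 0.0351), where 16.7% of all genes were called, and without the 10 most abundant genes (0.39, limma adjusted p 0.0148), where 16.2% were. In the authors' deposited table it stands at 0.31 with a p of 0.00728 and an FDR of 0.0976. Of its 50-base stretches, 9.19% occur in other genes, against 53.3% of those of Rpl7.

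Its main gene Rpl7 measured 85.4, 84.7 and 84.5 RPKM in WT and 78.0, 77.5 and 81.0 RPKM in KO. The WT libraries were nearly equal and all above the KO libraries, but the fold change of -0.11 did not pass (limma adjusted p 0.346). The ratio of Rpl7l1 to Rpl7 within a library, which no scaling of libraries can change, was 0.119, 0.104 and 0.118 in WT and 0.153, 0.146 and 0.135 in KO. All KO ratios (0.145 ± 0.00922, SD, n = 3) were above all WT ratios (0.114 ± 0.00827). In an exact two-sided permutation test on the log2 ratio this gave p = 0.1, the smallest that 3 libraries against 3 can give, and 0.200 after adjustment over the 6 pairs compared.

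Rps27l, a target of p53, measured 13.0, 13.3 and 15.7 RPKM in WT and 14.6, 13.7 and 14.8 RPKM in KO (fold change 0.04, limma adjusted p 0.805). Its main gene Rps27 measured 10.6, 11.04 and 11.4 RPKM in WT and 9.60, 9.17 and 9.22 RPKM in KO (-0.22, limma adjusted p 0.0791). Rps27l overlapped between genotypes and Rps27 did not, though 98.6% of the 50-base stretches of Rps27 occur in other genes. The ratio of Rps27l to Rps27 was 1.23, 1.21 and 1.37 in WT and 1.52, 1.49 and 1.61 in KO, again without overlap (exact permutation p = 0.1, adjusted 0.200).

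Rpl36al, the autosomal copy of the X-linked Rpl36a, measured 47.4, 50.8 and 50.9 RPKM in WT and 53.1, 48.5 and 57.2 RPKM in KO (fold change 0.09, limma adjusted p 0.525). Rpl36a measured 41.2, 46.1 and 48.8 RPKM in WT and 41.0, 37.7 and 40.2 RPKM in KO (-0.19, limma adjusted p 0.185). The genotypes overlapped for the copy, and for Rpl36a WT replicate 2 barely exceeded KO replicate 1. The ratio of Rpl36al to Rpl36a was 1.15, 1.10 and 1.04 in WT and 1.29, 1.29 and 1.42 in KO, with every KO ratio above every WT ratio (exact permutation p = 0.1, adjusted 0.200). Of the 50-base stretches of Rpl36a, 85.5% occur in other genes and 62.7% in the pseudogene row Rpl36a-ps2.

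Rpl36a-ps2, which is outside the family as defined here and was looked at after its values were seen, measured 3.62, 4.01 and 3.90 RPKM in WT and 5.44, 4.82 and 5.30 RPKM in KO. It was called higher (0.35 ± 0.08, SE, limma adjusted p 0.0226), while the authors' deposited table has it at 0.28 with an FDR of 0.466. The call was lost with limma-voom (limma adjusted p 0.0832) and without WT replicate 3 (0.0534), KO replicate 1 (0.0886) or KO replicate 3 (0.1). It was the only 1 of the 15 "-ps" rows called, beside 17.3% of all tested genes. Under the deposited totals 13 of those rows lay below 0 (67.6% of all tested genes), with a median of -0.10. Their median was -0.002 with equal medians and 0.04 without the 10 most abundant genes.

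Rpl3l and Rpl22l1 showed no such separation. For Rpl3l the fold change was 0.07 ± 0.08 (SE, 95% interval -0.12 to 0.26, limma adjusted p 0.597), and for Rpl3 it was -0.21 ± 0.15 (SE, limma adjusted p 0.339). The ratio of Rpl3l to Rpl3 was 16.1, 26.8 and 25.9 in WT and 26.5, 25.6 and 30.9 in KO (exact permutation p = 0.5, adjusted 0.600). The low WT value is that of replicate 2, in which Rpl3 was highest, and without that library the fold change of Rpl3 was -0.04. Rpl22l1, a paralogue of Rpl22, measured 1.15, 1.85 and 2.27 RPKM in WT and 1.39, 1.16 and 1.497 RPKM in KO, with 128 to 296 reads. Its fold change was -0.21 ± 0.15 (SE, limma adjusted p 0.338), and without WT replicate 2, its lowest library, it was called (-0.38, limma adjusted p 0.0381), while without WT replicate 4 it stood at -0.08. The ratio of Rpl22l1 to Rpl22 was 0.0313, 0.0495 and 0.0600 in WT and 0.0418, 0.0373 and 0.0423 in KO (exact permutation p = 0.700, adjusted 0.700).

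**Figure D5:**
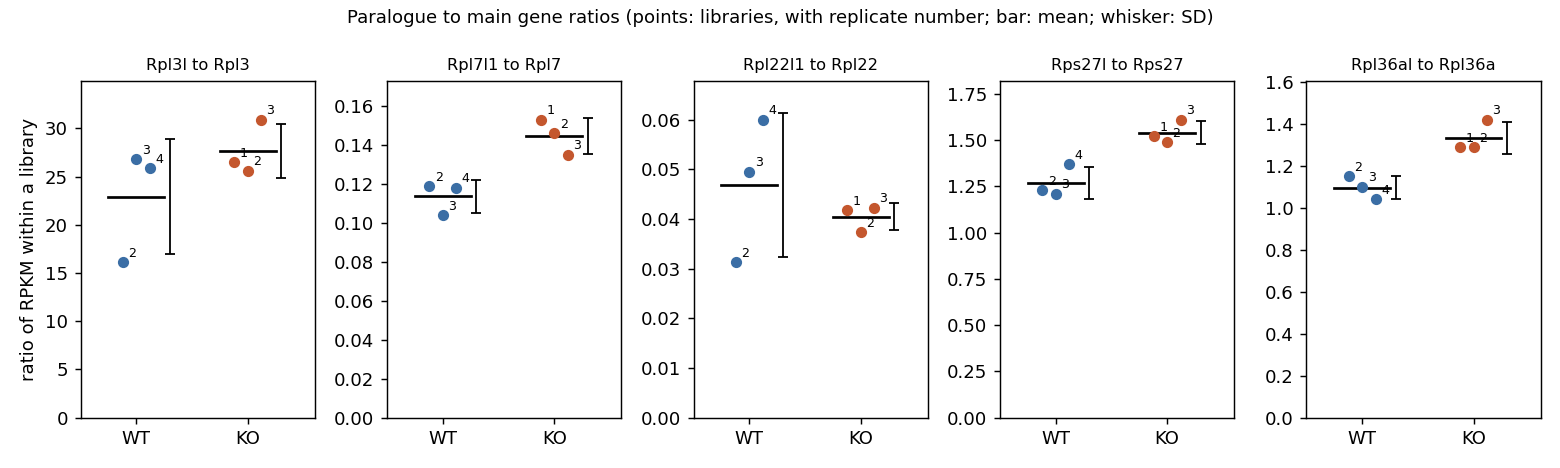
Each panel gives the RPKM of a paralogue divided by that of its main gene in the same library, for WT (blue) and KO (orange), with replicate numbers beside the points, the mean as a bar and the SD as a whisker (n = 3 each). The ratios of Rpl7l1 to Rpl7, Rps27l to Rps27 and Rpl36al to Rpl36a do not overlap between genotypes. Those of Rpl3l to Rpl3 and Rpl22l1 to Rpl22 do.

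The ribosomal proteins with other symbols were like the main genes in sign, and none of the 3 was called. Fau, whose product is cut to give a protein of the small subunit, measured 92.8, 104 and 113 RPKM in WT and 88.9, 80.2 and 89.1 RPKM in KO, without overlap (-0.26, limma adjusted p 0.109). Rack1, a scaffold on the small subunit, had a fold change of -0.07 (limma adjusted p 0.578). Mitochondrial ribosomal proteins, which form a separate ribosome, had 76 tested genes. Under the deposited totals 44 lay below 0 (57.9%, beside 67.6% of all tested genes), with a median of -0.02. Their median was 0.08 with equal medians and 0.14 without the 10 most abundant genes. In the authors' deposited table it was 0.06, with 26 of 78 genes below 0 and 52 above. Of the 76 tested genes, 3 were called lower (13.5% of all tested genes were), Mrpl41 (-0.57), Mrps9 (-0.38) and Mrps30 (-0.42). Each lost its call without KO replicate 3 (limma adjusted p 0.0529, 0.0694 and 0.0697). Mrps9 also lost it without the 10 most abundant genes (-0.22, 0.0789) and without KO replicate 1 (0.0547), and Mrps30 without the 10 most abundant genes (-0.25, 0.115), WT replicate 3 (0.0575), KO replicate 1 (0.0914) or KO replicate 2 (0.0824). The difference between the 2 families was not tested.

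Genes around the family were read from lists of textbook members. Of 20 tested non-ribosomal genes whose mRNAs carry a TOP run, 3 were called lower and none higher (13.5% and 3.83% of all tested genes). All 20 lay below 0 (67.6%) under the deposited totals, with a median of -0.17 (-0.07 with equal medians and -0.003 without the 10 most abundant genes). The authors' deposited table has 13 of them below 0 and 7 above, a median of -0.03, and none at an FDR under 0.05. Npm1, a nucleolar chaperone, measured 114, 103 and 96.1 RPKM in WT and 66.6, 68.8 and 70.6 RPKM in KO, far apart (-0.59 ± 0.09, SE, limma adjusted p 0.00581). Naca, a chaperone of nascent chains, measured 43.3, 38.5 and 38.7 RPKM in WT and 30.3, 27.6 and 29.2 RPKM in KO (-0.45, limma adjusted p 0.0109). Hnrnpa1, a splicing regulator, measured 146, 123 and 115 RPKM in WT and 86.0, 94.5 and 94.4 RPKM in KO (-0.47, limma adjusted p 0.0218). The call of Naca was lost without the 10 most abundant genes (-0.28, limma adjusted p 0.0633) and without KO replicate 3 (0.0555). That of Hnrnpa1 was lost in the same scaling (-0.29, 0.0943), without WT replicate 3 (0.0553) and without any KO replicate (up to 0.0876).

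Of 50 tested genes of ribosome assembly, 13 were called lower and none higher in KO (13.5% and 3.83% of all tested genes), with a median of -0.20 (-0.09 with equal medians and -0.05 without the 10 most abundant genes). Rrs1, needed for assembly of the large subunit, measured 25.5, 20.2 and 17.0 RPKM in WT and 6.29, 9.45 and 8.47 RPKM in KO. The genotypes were far apart, and the gene fell by 1.27 log2 units (-1.27 ± 0.17, SE, limma adjusted p 0.00432). Ubtf, which activates the polymerase that makes ribosomal RNA, measured 12.3, 10.2 and 10.2 RPKM in WT and 7.46, 7.70 and 6.82 RPKM in KO (-0.51, limma adjusted p 0.0120). Nob1, the nuclease of the last small-subunit cleavage, measured 2.50, 2.06 and 2.12 RPKM in WT and 1.36, 1.24 and 1.6 RPKM in KO (-0.43, limma adjusted p 0.0159). The call of Ubtf was lost without KO replicate 3 (limma adjusted p 0.0627), and that of Nob1 without KO replicate 1 (0.0627) or 2 (0.0608) and with replicate number as a block (0.0532). The fold change of Nob1 was -0.67 by limma-voom. Npm1, also on this list, and Rrs1 kept their calls in every setting run. None of these genes has an FDR under 0.05 in the authors' deposited table, where Rrs1 stands at -0.91 (FDR 0.115) and Ubtf at -0.36 (0.0613).

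Of 15 tested regulators of ribosomal protein mRNA translation, 1 was called higher and 2 lower (3.83% and 13.5% of all tested genes). Eif4ebp1, a repressor of cap-dependent translation that mTOR inactivates, measured 27.3, 19.1 and 13.9 RPKM in WT and 6.14, 8.30 and 8.66 RPKM in KO. WT varied widely, yet its lowest library was above all of KO (-1.24 ± 0.22, SE, limma adjusted p 0.00994), and the call was kept in every setting run. Eif4e, the cap-binding protein that Eif4ebp1 holds, measured 5.08, 5.40 and 6.04 RPKM in WT and 7.60, 7.52 and 7.09 RPKM in KO (0.37, limma adjusted p 0.0227), a call lost without WT replicate 3 (0.0719) or any KO replicate (up to 0.0860). Cnbp, which binds TOP mRNAs, measured 74.9, 75.3 and 72.4 RPKM in WT and 61.6, 55.7 and 62.1 RPKM in KO (-0.31, limma adjusted p 0.0356). It lost its call in 7 settings, among them equal library medians (limma adjusted p 0.159) and totals without the 10 most abundant genes (-0.13, 0.370). Of 13 tested genes of ribosome quality control and stress, only Cdkn1a, a p53 target, was called, beside 17.3% of all tested genes (4.98, 2.32 and 2.40 RPKM in WT, 1.35, 1.38 and 1.52 RPKM in KO, -0.76, limma adjusted p 0.0423), and its call was lost in 4 settings (up to 0.121). Without WT replicate 2, by far its highest library, its fold change was -0.48 (limma adjusted p 0.00725). In the authors' deposited table none of these 4 has an FDR under 0.05, and that of Eif4e is 0.0549.

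Markers of cell types were read in the same libraries. All 6 muscle fibre markers were present, at a summed 73399.9 to 80520.1 RPKM in WT and 83444 to 87772 RPKM in KO, and none was called. Schwann cell markers (5 of 6 in the table, 4 tested) summed to 30.8 to 49.0 RPKM in WT and 6.98 to 9.69 RPKM in KO. All 4 tested were called lower (Mbp, Pmp22 and Prx among them), beside 13.5% of all tested genes. Endothelial markers summed to 16.8 to 26.8 and 14.1 to 15.3 RPKM, with 1 of 5 tested, Cldn5, called lower. The single lymphocyte marker in the table, Ighm, was called higher (2.67 to 9.28 and 12.5 to 21.6 RPKM), beside 3.83% of all tested genes. Macrophage (2 of 5 in the table), red blood cell (5 of 5), fibro-adipogenic (4 of 4, Smoc2 called higher) and satellite cell markers (3 of 4) overlapped between genotypes, and no adipocyte marker is in the table. The part of these differences in the values of the ribosomal protein and assembly genes was not tested.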

How the data were processed

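Gastrocnemius RNA gave 3 libraries per genotype, made from fragmented mRNA with random hexamers, per the labels' protocols. Groups and replicate numbers came from sample titles. The build GRCm39 is named per the submitters' processing notes, while aligner, counting program, annotation release, strand handling and treatment of multi-mapping reads were not given in the sources used here.

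The authors deposited RPKM values. No unit is named, so RPKM was inferred: value times gene length times library total gave whole reads (tolerance 0.05) for 99.9% of the 11815 genes and for all 85 members, with GENCODE M21 exon lengths for 66 members and lengths found from the values for 19 (404 to 6270 bp). Of the members' read values, 60.6% were even, so reads need not be separate fragments and no counting interval is given. The authors also deposited a log2 fold change, a log2 CPM, an F score, a p-value and an FDR per gene, named so per the file headers. Which test gave them was not stated in the sources used here.

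The test was limma-trend (limma 3.58.1, R 4.3.3) on log2(RPKM + 1) over 7574 genes, on genotype alone, with p-values adjusted by Benjamini-Hochberg. It was checked on simulated data with independent noise for each gene, so the check does not cover genes that move together between libraries. Alternatives were a pseudocount of 0.1, no filter, equal library medians, totals without the 10 most abundant genes, leaving out each replicate, a block for replicate number, an unadjusted p and the authors' FDR. Limma-voom on the recovered reads was chosen after seeing the data. Members and lists were chosen with earlier results of these data known. Named genes were paralogue pairs, Rplp0, Rpsa, members at an unadjusted p under 0.05, the 5 largest changes, the highest and lowest 4 levels, neighbours of Rpl3l in level, and up to 4 called genes per list (or the 1 with the smallest p). Rps6, Rack1, Rpl36a-ps2 and the mitochondrial genes were added after their values were seen. Rplp2 was not taken by the rule either and is described beside the other stalk genes. Some genes that the rule took are left out of text and figures. All value columns were mapped.

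Shared 50-base stretches, main transcripts (by APPRIS, then CCDS, then length) and overlaps came from GENCODE M21, and promoter sequences from RefSeq, both on GRCm38 and not the build of the notes. Between replicates of a genotype, chi-square per gene was at least 25.4 (KO) and 81.0 (WT), so none was the same library sequenced again. This cannot show whether the libraries came from separate animals. Python 3.11.15, pandas 2.3.3, numpy 2.4.6, scipy 1.17.1 and matplotlib 3.10.9 did the rest.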

Additional observations from a re-analysis of the deposited data

How the results depend on the processing

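The number of called members, 0 under the deposited totals, was 1 with equal library medians and 1 without the 10 most abundant genes (Rpl7l1 in both), and 0 to 3 with 1 library left out. It was 13 at an unadjusted p under 0.05, and 0 with the other alternatives. The members' median, -0.14, was -0.04 with equal medians and 0.03 without the 10 most abundant genes. The log2 ratio of summed RPKM, -0.12, was -0.02 and 0.06 in those scalings and -0.16 to -0.08 with 1 library left out. The log2 ratio of Rpl3l to Rpl3, 0.27, was 0.07 to 0.40 with 1 library left out.

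The sign changes given here are those of the 29 members named by rule. Over all 85 members, those below 0 went from 77 to 64 with equal medians and to 27 without the 10 most abundant genes. Without the 10 most abundant genes the fold change changed sign for Rpl18 (0.01), Rpl22 (0.01), Rpl7 (0.08), Rplp0 (0.02), Rps24 (0.09) and Rpl6l (0.10). With equal medians it did so for Rps24 (0.01) and Rpl6l (0.07). Rpl6l also changed sign with the block (0.02) and without WT replicate 3 (0.05), KO replicate 1 (0.01) or KO replicate 2 (0.01), Rpl23a without WT replicate 2 (-0.04), KO replicate 1 (-0.001) or KO replicate 3 (-0.003), and Rps27l without WT replicate 2 (-0.01). With 1 library left out, Rpl23a ranged from -0.04 to 0.04 and Rps27l from -0.01 to 0.11. The 2 scalings change every gene of a library by the same factor, and for the rest the cause was not tested. Of the other values of 29 named members, 327 kept their sign and side of the threshold and 5 gained a call.

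Replicates 2 and 3 are shared by number only. Deviations of same-numbered libraries correlated at 0.48 and 0.27, but 2 pairs do not settle a pairing. Replicate 1 is only in KO and replicate 4 only in WT. A block for replicate number thus rests the genotype difference on replicates 2 and 3 alone. With that block 0 members were called, the median was -0.12, the log2 ratio of sums -0.11 and that of Rpl3l to Rpl3 0.44. The block gave 1548 calls over all genes in place of 1311. With 1 library left out, calls over all genes ranged from 471 (without KO replicate 3) to 1637 (without WT replicate 4).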
